A study of Mus musculus with 16 samples.

Results

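Levels of the sodium, calcium and HCN channel genes were examined in whole hypothalamus of ASIC1a-/- and wild-type (WT) mice at 2 times of day. The members were the protein-coding genes whose symbols begin with Scn, Cacn or Hcn followed by a subunit name. There were 47 such symbols, and 40 of them passed a filter on low values, which kept any gene exceeding 1 CPM (counts scaled to a common library size) in 1 library or more, among 15806 genes tested in all. They comprise 8 sodium channel alpha subunits, 4 sodium channel beta subunits, 1 epithelial sodium channel subunit (Scnn1a), 9 pore-forming calcium channel subunits (Cacna1), 4 alpha2delta subunits (Cacna2d), 4 cytoplasmic calcium channel beta subunits (Cacnb), 6 gamma subunits (Cacng) and the 4 HCN channels. The splicing factor Scnm1 shares the letters but is no channel gene and was left out. The 7 members under the filter were Scnn1g, Scnn1b, Scn4a, Scn10a, Cacng1, Cacng6 and Cacna1f, whose highest value in any library was 0.112 to 0.506 CPM.

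Voltage-gated sodium channels carry the upstroke of the action potential, and their beta subunits set gating and surface density. Voltage-gated calcium channels couple depolarisation to transmitter and hormone release and to gene expression, and the low-threshold T-type channels support burst firing. HCN channels open on hyperpolarisation, are gated by cyclic nucleotides and contribute to pacemaking and resting potential, which bears on the daily firing rhythm of hypothalamic neurons. Several gamma subunits, among them Cacng2, Cacng3, Cacng4, Cacng5, Cacng7 and Cacng8, are better known as transmembrane AMPA receptor regulatory proteins (TARPs), which control the trafficking and gating of AMPA receptors. ASIC1a itself is a proton-gated sodium channel of another family.

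RNA was sequenced from 16 male C57BL/6 mice aged 3 months that had been kept in a light-dark cycle. The groups were ASIC1a-/- mice at ZT13, WT mice at ZT13, ASIC1a-/- mice at ZT1 and WT mice at ZT1, with 4 mice in each, where Zeitgeber time (ZT) counts the hours after lights on. ZT1 therefore lies at the start of the light phase and ZT13 at the start of the dark phase. The ASIC1a-/- mice carry a global knockout, present in every tissue and throughout life, and WT and ASIC1a-/- mice came from heterozygous parents. Every library came from another mouse, so both times were sampled from separate animals. Where groups are compared below, ± is the SE of a log2 fold change from a fit of all 16 libraries, with 4 mice in each group. Values averaged over genotypes or over times set 8 mice against 8, and the interaction used all 4 groups.

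The libraries held 34888522 to 42326259 expected counts. Asic1 itself lay at 64.9 to 71.9 CPM in the 8 ASIC1a-/- libraries, against 97.1 to 106 CPM in the 8 WT libraries, with no overlap. Transcripts of the targeted gene were thus still counted in ASIC1a-/- hypothalamus. The counts are per gene and do not separate Asic1a from the rest of Asic1. By RT-qPCR, the paper reports that ASIC1a-/- mice lacked Asic1a mRNA. Markers of the hypothalamus (12 of 12 tested) summed to 3400 to 4730 TPM (transcript abundance, a scale that corrects for transcript length) over the libraries. Most of this sum was Pmch, with 2410 to 3750 TPM. Meningeal markers were high in ASIC1a-/- replicate 4 at ZT1 (254 TPM) and ASIC1a-/- replicate 2 at ZT13 (140 TPM). The thalamic marker Tcf7l2 was at 18.7 TPM in ASIC1a-/- replicate 4 at ZT13 and at 27.6 and 17.9 TPM in WT replicates 4 and 3 at ZT1, while the other libraries held 9.46 to 14.5 TPM. In whole tissue fewer cells of a type and less RNA per cell cannot be told apart.

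Promoter windows in RefSeq (GRCm38.p6; 250 bases before to 50 after an annotated start) were available for 28 of the 40 members. The windows of Hcn4 and Hcn2 are shown because these HCN genes moved in opposite directions with time of day. Capitals mark the 50 bases from the RefSeq start onward, which need not be the GENCODE start given with each gene below.

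Hcn4, chr9:58822699-58822998, plus strand: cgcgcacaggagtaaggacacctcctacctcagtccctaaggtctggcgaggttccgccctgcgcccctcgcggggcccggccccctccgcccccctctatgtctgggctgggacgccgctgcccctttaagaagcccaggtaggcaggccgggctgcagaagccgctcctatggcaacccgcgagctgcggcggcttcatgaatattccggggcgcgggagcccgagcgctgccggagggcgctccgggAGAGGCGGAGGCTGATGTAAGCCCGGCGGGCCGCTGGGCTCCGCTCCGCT
Hcn2, chr10:79716384-79716683, plus strand: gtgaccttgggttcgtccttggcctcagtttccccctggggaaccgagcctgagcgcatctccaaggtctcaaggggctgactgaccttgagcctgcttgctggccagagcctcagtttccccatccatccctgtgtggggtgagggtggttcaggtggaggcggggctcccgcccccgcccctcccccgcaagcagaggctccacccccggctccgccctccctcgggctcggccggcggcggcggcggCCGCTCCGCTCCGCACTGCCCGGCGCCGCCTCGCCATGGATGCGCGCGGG

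Both windows were rich in CpG dinucleotides, with 31 in Hcn4 and 26 in Hcn2, against a median of 7 over all 32851 windows of the table. Windows were searched on both strands for the E-box CACGTG, the E-prime-box CACGTT, the D-box TTANGTAA, the RORE TAGGTCA and the cyclic AMP response element TGACGTCA with its half-site TGACG, which the full element contains. The E-box was in no window of the 28 members and in 7.15% of all windows. The E-prime-box was found in Cacnb1 alone (4.68% of all windows), and the D-box and the RORE in Scn1a alone (2.32% and 2.61%). The full cyclic AMP response element was in no member (1.79% of all windows). The half-site was in Cacna1b, Cacna1c, Cacna1i, Cacna2d1 and Cacnb2 (20.8% of all windows). The percentages count windows, whereas a member was counted if any of its windows matched (39 windows for the 28 members). Of the 12 members called for time of day below, 8 had a window, and those holding a half-site were Cacna1i and Cacnb2. Their sites are shown with the match in capitals, which in Cacna1i is the reverse complement. The Cacnb2 site lies in its window at chr2:14823842-14824141. Its other window, at chr2:14604056-14604355 and nearer its GENCODE start, held none of these motifs.

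Cacna1i, chr15:80287154-80287182, plus strand: cagtcgcgccacCGTCActcagtctgtcg
Cacnb2, chr2:14823963-14823991, plus strand: ttctgagccagcTGACGtaattcaaagta

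A match is a run of letters and not a site of binding, and a window of this length does not hold distal elements.

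The members spanned a wide range of levels. The sodium channel beta subunit Scn2b was among the most abundant members, with a mean over the 16 libraries of 122 TPM, and Scn3b held 87.5 TPM. Other abundant members were the TARP Cacng7 (100 TPM), the alpha2delta subunit Cacna2d1 (91.4 TPM), the T-type channel Cacna1g (88.9 TPM), the beta subunit Cacnb3 (87.0 TPM), Hcn2 (80.0 TPM) and Scn2a (73.2 TPM). Among the high-threshold channels, the P/Q-type Cacna1a led with 66.7 TPM, and Cacna1d led the L-type channels with 26.0 TPM. Of the HCN channels, Hcn3 held 26.6 TPM and Hcn4 6.52 TPM, both below Hcn2. At the low end were Scnn1a (2.42 TPM), Cacna2d4 (2.17 TPM), the skeletal muscle L-type channel Cacna1s (1.61 TPM) and the sensory neuron channel Scn11a (0.442 TPM). Together the members made up 0.165% to 0.182% of the TPM of a library.

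**Figure D1:**
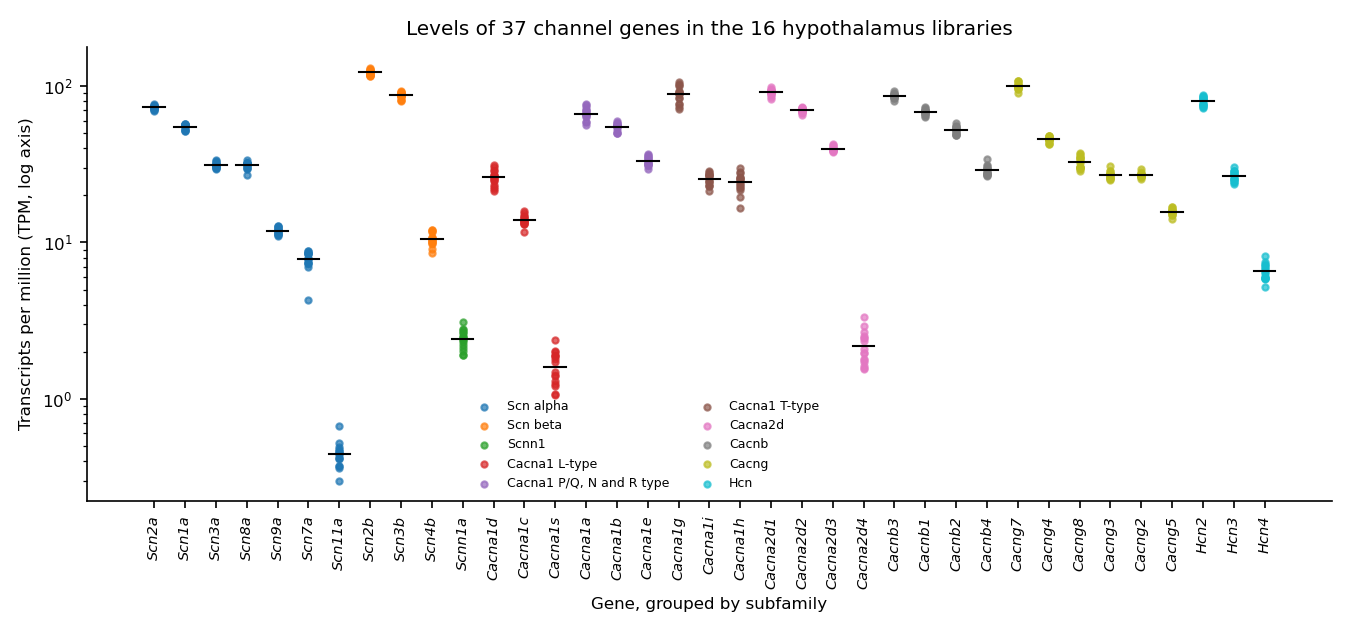
Level of 37 channel genes in the 16 libraries, in TPM on a log axis, grouped by subfamily. Points are libraries and black lines their mean. Scn2b (122 TPM) lies at the top and Scn11a (0.442 TPM) at the bottom.

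The spread between libraries was narrow, so that the points of most genes in the plot of levels sit close to their mean. Between all 16 libraries the coefficient of variation in CPM was 1.94% for Scn3a, 2.11% for Cacnb3 and 2.41% for Scn2a, but 18.6% for the rare Scn11a. Scn7a, named after its values were seen, was at 16.8 CPM in ASIC1a-/- replicate 2 at ZT1 and at 25.7 to 33.5 CPM in the other 15 libraries. Scn7a encodes the sodium-sensing channel Nax. The expected counts of Scn1a, Scn2a and Scn3a were not whole numbers in any library, nor were those of Scn9a in 15 of 16 (tolerance 0.005), since RSEM divides reads that match more than 1 gene, and these similar genes lie near each other on chromosome 2. Their values are less certain for that reason. The counts of the other 36 members were whole.

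The first question was whether the loss of ASIC1a alters the level of other cation channel genes. Levels were compared with edgeR's quasi-likelihood test on the expected counts of all 15806 genes, and a gene was called at a Benjamini-Hochberg adjusted p under 0.05. No member was called between ASIC1a-/- and WT mice. This held at ZT13 (0 of 40, with 0.101% of all genes called), at ZT1 (0 of 40, with 0.0127% called) and for the average over both times (0 of 40, with 0.0633% called). At an unadjusted p under 0.05 there were 0 of 40 members at ZT13, 7 at ZT1 and 3 for the average. Of all 15806 genes, 591, 1107 and 1075 were under 0.05 in these comparisons. DESeq2, limma-voom and limma on log2 TPM also called 0 members in each of these comparisons.

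Differences between genotypes were small in every subfamily. At ZT13 the log2 fold changes (ASIC1a-/- over WT) ranged from -0.21 to 0.16 with a median of -0.0076, and 23 of 40 were below 0. At ZT1 they ranged from -0.16 to 0.053 with a median of -0.048, and 35 of 40 were below 0. Over all tested genes the median was 1e-04 at both times. The 7 thalamic markers had a median of 0.047 at ZT13 and -0.27 at ZT1. With the log2 of their summed TPM as a covariate, 0 members were called at ZT1. The same number was called without WT replicates 3 and 4 at ZT1, which were high in Tcf7l2 and Ramp3. The fit with all libraries and no covariate also called 0, so these counts say nothing of the median of the members. Without these libraries the log2 fold changes at ZT1 were -0.115 for Cacnb4, -0.053 for Scn8a and -0.105 for Scn1a. The part of the thalamic markers in the median of the members at ZT1 was not tested. For the 36 members with a mean over 10 CPM, the 95% intervals of the log2 fold change lay within -0.31 and 0.33 at ZT13 and within -0.38 and 0.20 at ZT1. Changes smaller than these bounds could be missed with 4 mice in a group.

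**Figure D2:**
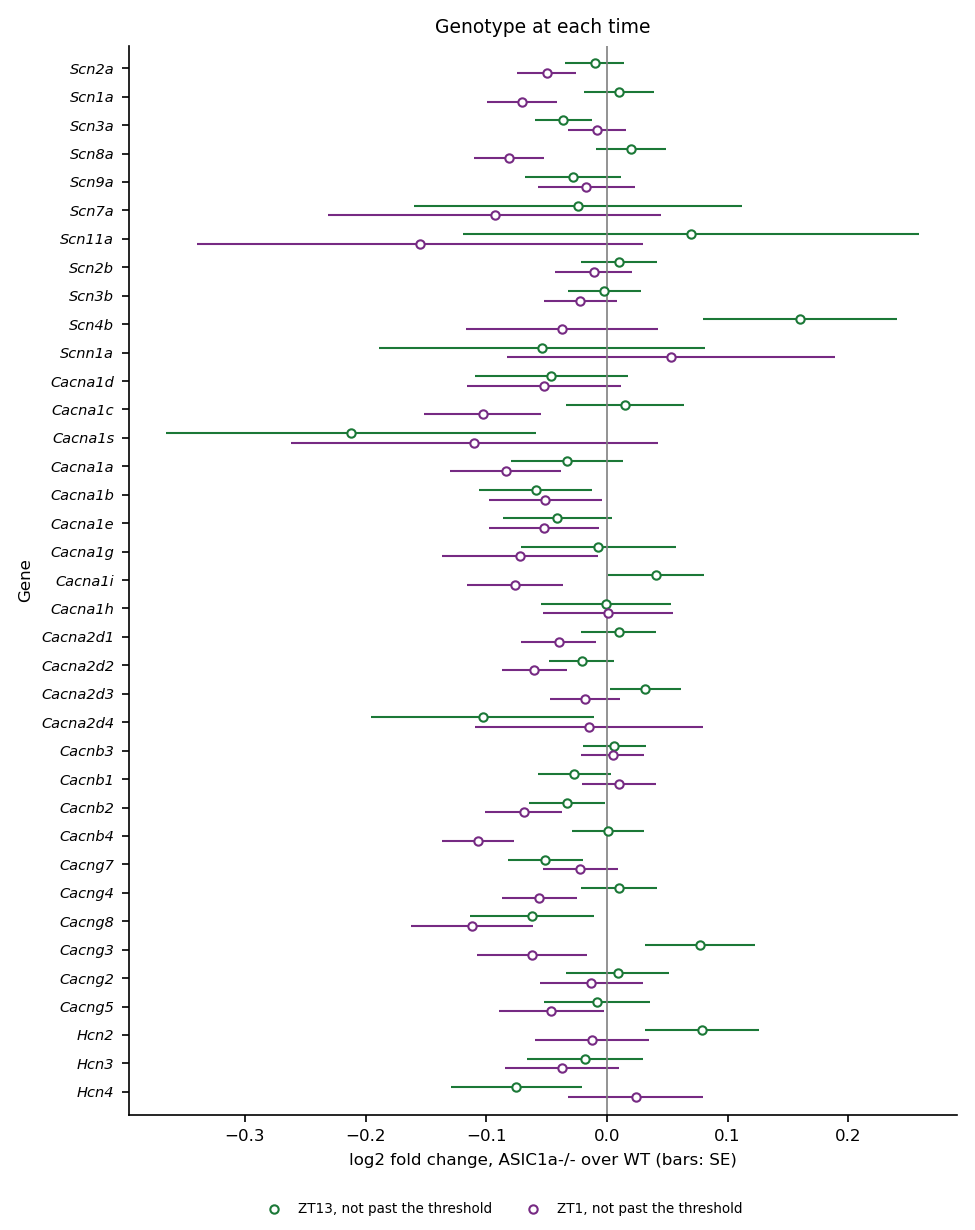
Log2 fold change of 37 channel genes, ASIC1a-/- over WT, at ZT13 (green) and ZT1 (purple), with bars for the standard error and open points for genes that did not pass the threshold. No gene passed it at either time, and 32 of the 37 purple points lie left of 0.

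The smallest p at ZT1 belonged to Cacnb4, a cytoplasmic beta subunit that brings calcium channels to the membrane and is mutated in the epileptic lethargic mouse. Cacnb4 stood at 114, 113, 109 and 118 CPM in ASIC1a-/- mice, against 124, 122, 122 and 121 CPM in WT mice. All 4 ASIC1a-/- libraries were below all 4 WT libraries. The log2 fold change was -0.11 ± 0.030 with an adjusted p of 0.68 by edgeR. At ZT13 the same gene gave 0.001 ± 0.030. Scn8a, the sodium channel of the axon initial segment, had 163, 153, 154 and 159 CPM in ASIC1a-/- mice at ZT1 and 164, 162, 170 and 169 CPM in WT mice at ZT1. The ranges overlapped, and the log2 fold change was -0.081 ± 0.029 (adjusted p = 0.68 by edgeR). Scn1a, the channel of fast-spiking inhibitory neurons, was next with -0.070 ± 0.029.

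At ZT13 the smallest p were those of Scn4b, Cacng3 and Hcn2. Scn4b, a beta subunit linked to resurgent sodium current, lay at 29.9, 24.7, 24.6 and 26.9 CPM in ASIC1a-/- mice at ZT13 and at 25.4, 26.0, 22.8 and 20.8 CPM in WT mice at ZT13. These values overlapped, and the log2 fold change was 0.16 ± 0.081 with an adjusted p of 1 by edgeR. Averaged over times, the smallest p were those of Cacnb4 (-0.053 ± 0.021), Cacng8 (-0.087 ± 0.036) and Cacnb2 (-0.051 ± 0.023), with adjusted p of 0.72, 0.72 and 0.723 by edgeR.

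The second question was whether the members differ between the start of the dark phase and the start of the light phase. Averaged over genotypes, 12 of 40 members (30%) were called between ZT13 and ZT1, while 26.4% of all tested genes were called in the same comparison. The share among the members is thus near that of the genes at large. Members higher at ZT13 (4 of 40, with 14.3% of all genes higher) included Hcn4, Cacna2d4 and Cacnb2. Cacng8, Hcn3, Cacnb4, Scn3b, Scn2b, Cacna1i, Cacng7 and Hcn2 were lower at ZT13 (8 of 40, with 12.1% of all genes lower). The median log2 fold change over the members was -0.010, against -0.0049 over all tested genes.

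In ASIC1a-/- mice alone 4 of 40 members were called (10%, with 11.3% of all genes called). Hcn4 was among the 2 that were higher at ZT13 (6.72% of all genes higher), and Cacng8 and Cacng7 were lower (4.62% lower). In WT mice alone 9 of 40 were called (22.5%, with 13.3% of all genes called). Hcn4 was again among the 2 that were higher (7.51% of all genes higher), and Cacnb4, Cacna1i, Cacng8, Hcn3, Hcn2, Scn3b and Scn2b were lower (5.76% lower). The difference between the genotypes in the time effect, tested as the interaction of genotype and time, was called for 0 of 40 members by edgeR (0.019% of all genes called), by DESeq2 and by limma-voom. An unadjusted p under 0.05 was reached by 618 of all 15806 genes and by 3 of 40 members, namely Cacnb4, Scn8a and Cacng3. A call in one genotype and not in the other was therefore not shown to be a difference between genotypes.

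**Figure D3:**
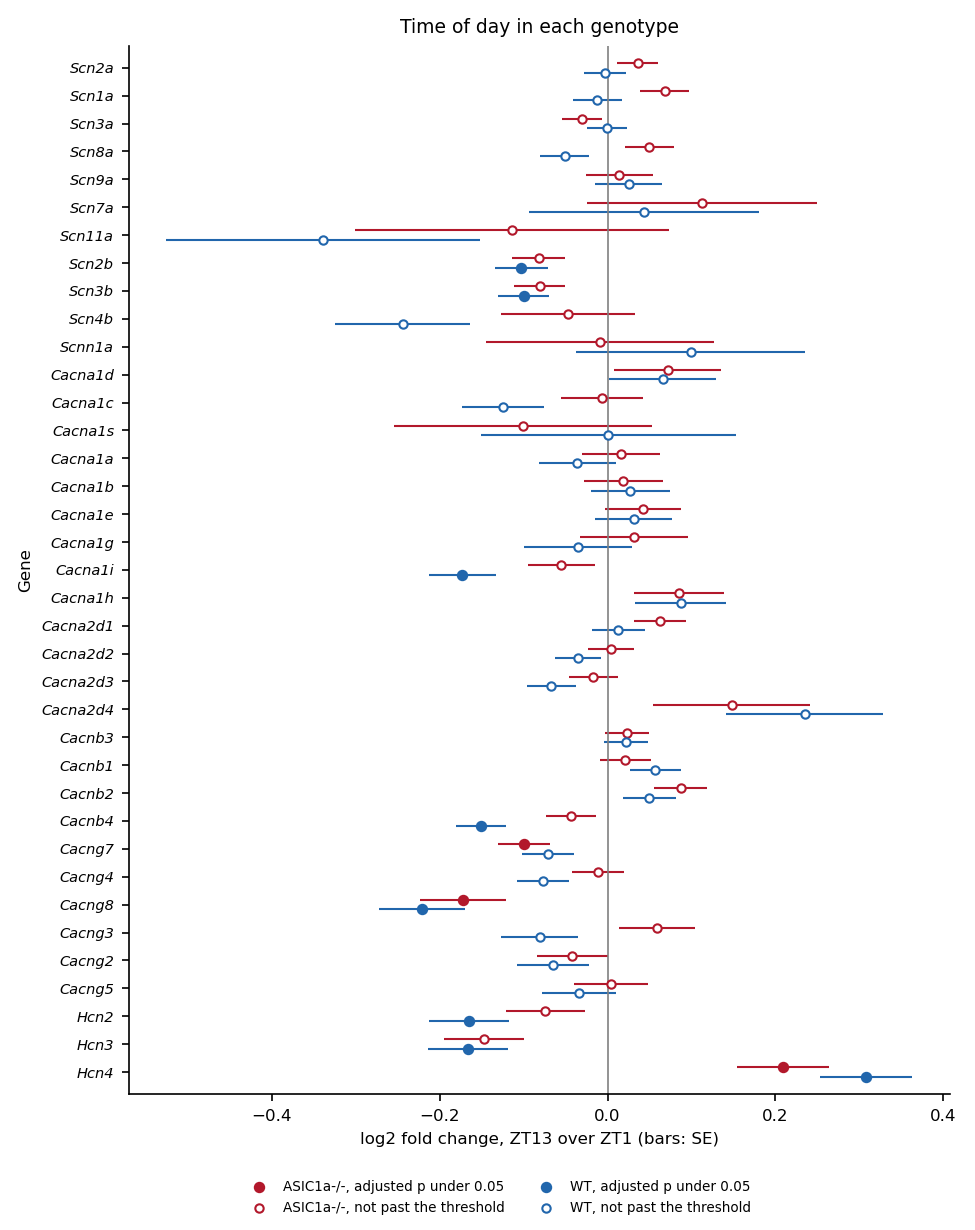
Log2 fold change of 37 channel genes, ZT13 over ZT1, in ASIC1a-/- mice (red) and WT mice (blue), with bars for the standard error. Filled points passed an adjusted p of 0.05. Hcn4 is filled to the right in both genotypes and Cacng8 to the left in both.

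HCN channels showed both directions. Hcn4 (ENSMUSG00000032338, chr9:58823412-58863175, plus strand), the slowly activating isoform known from the sinoatrial node and thalamus, had 21.8, 22.1, 21.8 and 19.9 CPM in ASIC1a-/- mice at ZT13, against 19.0, 16.7, 19.8 and 18.6 CPM in ASIC1a-/- mice at ZT1. WT mice had 21.3, 21.2, 23.1 and 24.6 CPM at ZT13, against 18.5, 17.97, 18.1 and 18.3 CPM at ZT1. All 8 libraries at ZT13 were above all 8 at ZT1, although the lowest at ZT13 and the highest at ZT1, both of ASIC1a-/- mice, nearly touched. The log2 fold change was 0.26 ± 0.039 averaged over genotypes (adjusted p = 0.00011 by edgeR), 0.21 ± 0.055 in ASIC1a-/- mice and 0.31 ± 0.055 in WT mice. Among the members this was the largest change averaged over genotypes.

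Hcn3 (ENSMUSG00000028051, chr3:89146074-89160196, minus strand), an isoform with little response to cyclic AMP, moved the other way. It had 34.7, 38.5, 39.5 and 37.9 CPM in ASIC1a-/- mice at ZT13, against 42.6, 39.4, 44.0 and 40.7 CPM in ASIC1a-/- mice at ZT1. The values of WT mice were 39.99, 35.8, 39.2 and 37.5 CPM at ZT13, against 40.2, 43.8, 43.3 and 43.8 CPM at ZT1. Both times were separate in WT mice, and in ASIC1a-/- mice 1 library at ZT1 fell just within the range at ZT13. The log2 fold change averaged over genotypes was -0.16 ± 0.034 (adjusted p = 0.00221 by edgeR).

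Hcn2 (ENSMUSG00000020331, chr10:79716634-79736108, plus strand), the cyclic AMP-sensitive isoform that is the most abundant of the family in these libraries, had 129, 114, 117 and 133 CPM in ASIC1a-/- mice at ZT13, against 131, 140, 125 and 123 CPM in ASIC1a-/- mice at ZT1. In WT mice it had 121, 116, 115 and 114 CPM at ZT13, against 137, 125, 131 and 130 CPM at ZT1. The times overlapped in ASIC1a-/- mice, while those of WT mice were separate. Its log2 fold change was -0.12 ± 0.034 averaged over genotypes (adjusted p = 0.0131 by edgeR), -0.074 ± 0.047 in ASIC1a-/- mice (adjusted p = 0.34) and -0.17 ± 0.048 in WT mice.

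**Figure D4:**
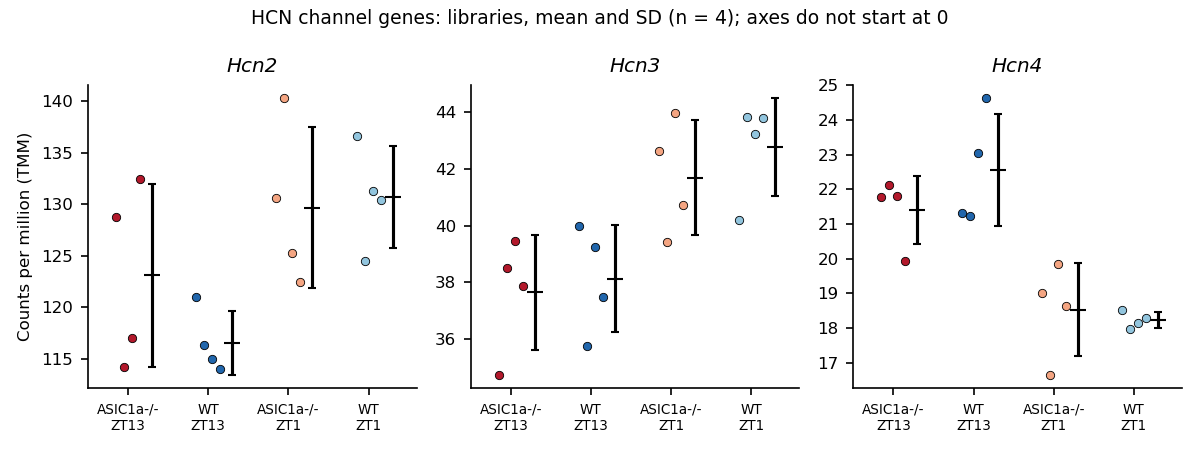
CPM (TMM-scaled) of Hcn2, Hcn3 and Hcn4 in each library, with group mean and SD (n = 4) beside the points. The vertical axes do not start at 0. Hcn4 is higher at ZT13, with 19.9 to 24.6 CPM, than at ZT1, with 16.7 to 19.8 CPM, and Hcn3 and Hcn2 are lower at ZT13.

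Among the sodium channel alpha subunits, Scn2a, the most abundant of them in TPM, gave a log2 fold change of 0.016 ± 0.017 averaged over genotypes, and Scn8a gave 0.000 ± 0.021, both without a call.

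The sodium channel beta subunits Scn2b and Scn3b were both lower at ZT13. Scn2b (ENSMUSG00000070304, chr9:45117782-45130070, plus strand), which is linked to alpha subunits by a disulfide bond, had 274, 270, 270 and 296 CPM in ASIC1a-/- mice at ZT13, against 299, 305, 284 and 287 CPM in ASIC1a-/- mice at ZT1. The values of WT mice were 281, 280, 272 and 270 CPM at ZT13, against 301, 288, 293 and 303 CPM at ZT1. The WT times were separate, while 1 ASIC1a-/- library at ZT13 lay among those at ZT1. Averaged over genotypes, its log2 fold change was -0.093 ± 0.022 (adjusted p = 0.00517 by edgeR).

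Scn3b (ENSMUSG00000049281, chr9:40269217-40291618, plus strand), a non-covalently bound beta subunit, had 161, 149, 159 and 164 CPM in ASIC1a-/- mice at ZT13, against 165, 172, 163 and 169 CPM in ASIC1a-/- mice at ZT1. In WT mice it had 154, 155, 166 and 159 CPM at ZT13, against 173, 170, 168 and 169 CPM at ZT1. Averaged over genotypes, its log2 fold change was -0.090 ± 0.022 (adjusted p = 0.00475 by edgeR), and the times were separate in WT mice only. Scn4b was at -0.15 ± 0.057 and missed the threshold with an adjusted p of 0.0659.

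The pore-forming calcium channel subunits contributed 1 call out of 9. Cacna1i (ENSMUSG00000022416, chr15:80287238-80398279, plus strand), a T-type channel, had 88.9, 85.6, 94.3 and 83.5 CPM in ASIC1a-/- mice at ZT13, against 93.3, 89.4, 93.8 and 89.7 CPM in ASIC1a-/- mice at ZT1. WT mice had 86.7, 84.2, 86.6 and 84.8 CPM at ZT13, against 90.1, 95.3, 103 and 97.6 CPM at ZT1. The WT times were separate and the ASIC1a-/- times overlapped. Its log2 fold change was -0.11 ± 0.028 averaged over genotypes (adjusted p = 0.00578 by edgeR), -0.055 ± 0.040 in ASIC1a-/- mice (adjusted p = 0.401) and -0.17 ± 0.040 in WT mice. The other T-type channels Cacna1g and Cacna1h were not called, and Cacna1g stood at -0.002 ± 0.046. Cacna1a was at -0.010 ± 0.033 and Cacna1d at 0.069 ± 0.045.

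Auxiliary calcium channel subunits gave calls in both directions. Cacnb4 (ENSMUSG00000017412, chr2:52428320-52676831, minus strand) had 111, 108, 108 and 114 CPM in ASIC1a-/- mice at ZT13, against 114, 113, 109 and 118 CPM in ASIC1a-/- mice at ZT1, which overlapped. WT mice had 112, 115, 108 and 106 CPM at ZT13, against 124, 122, 122 and 121 CPM at ZT1, with no overlap. The 4 WT libraries at ZT1 lay above the other 12, and they enter both the genotype comparison at ZT1 and the time comparison in WT mice. On the log2 scale, ZT13 over ZT1, it stood at -0.097 ± 0.021 averaged over genotypes (adjusted p = 0.00241 by edgeR), -0.043 ± 0.030 in ASIC1a-/- mice (adjusted p = 0.385) and -0.15 ± 0.030 in WT mice. For the interaction the value was 0.11 ± 0.042, with an adjusted p of 1 by edgeR. Cacnb2, the beta subunit of cardiac and neuronal channels, ranged from 69.0 to 72.3 CPM (median 71.1) in the 8 libraries at ZT13 and from 63.0 to 72.1 CPM (median 67.7) in the 8 at ZT1, which overlapped. Its log2 fold change averaged over genotypes was 0.069 ± 0.023 (adjusted p = 0.0309 by edgeR). Cacna2d4, an alpha2delta subunit best known from the retina, ranged from 3.36 to 4.09 CPM (median 3.66) at ZT13 and from 2.93 to 3.43 CPM (median 3.24) at ZT1, which overlapped. Its log2 fold change averaged over genotypes was 0.19 ± 0.066 (adjusted p = 0.0393 by edgeR). Cacnb3 (0.022 ± 0.018) and Cacna2d1 (0.038 ± 0.022) were not called.

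Among the gamma subunits, the neighbouring TARP genes Cacng7 and Cacng8 on chromosome 7 were both lower at ZT13. Cacng8 (ENSMUSG00000053395, chr7:3390683-3415648, plus strand) had 17.8, 19.5, 18.3 and 16.97 CPM in ASIC1a-/- mice at ZT13, against 22.1, 19.2, 20.95 and 19.6 CPM in ASIC1a-/- mice at ZT1. The values of WT mice were 19.2, 19.6, 17.95 and 19.1 CPM at ZT13, against 21.8, 21.2, 22.2 and 23.1 CPM at ZT1. The WT times were separate, and 1 ASIC1a-/- library at ZT1 lay within the range at ZT13. Its log2 fold change was -0.20 ± 0.036 averaged over genotypes (adjusted p = 0.000664 by edgeR), -0.17 ± 0.051 in ASIC1a-/- mice and -0.22 ± 0.051 in WT mice.

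Cacng7 (ENSMUSG00000069806, chr7:3332955-3368221, plus strand) had 78.6, 78.1, 77.6 and 79.2 CPM in ASIC1a-/- mice at ZT13, against 88.0, 84.6, 81.9 and 81.5 CPM in ASIC1a-/- mice at ZT1. In WT mice it had 81.4, 78.4, 84.5 and 80.5 CPM at ZT13, against 84.0, 82.9, 85.9 and 88.4 CPM at ZT1. Here the ASIC1a-/- times were separate and the WT times overlapped. On the log2 scale, ZT13 over ZT1, it stood at -0.086 ± 0.022 averaged over genotypes (adjusted p = 0.00731 by edgeR), -0.10 ± 0.031 in ASIC1a-/- mice and -0.071 ± 0.031 in WT mice (adjusted p = 0.144). The third gene of this cluster, Cacng6, was under the filter. All 6 gamma subunits had a log2 fold change below 0 averaged over genotypes, of -0.20 to -0.011, and 2 of them passed the test.

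**Figure D5:**
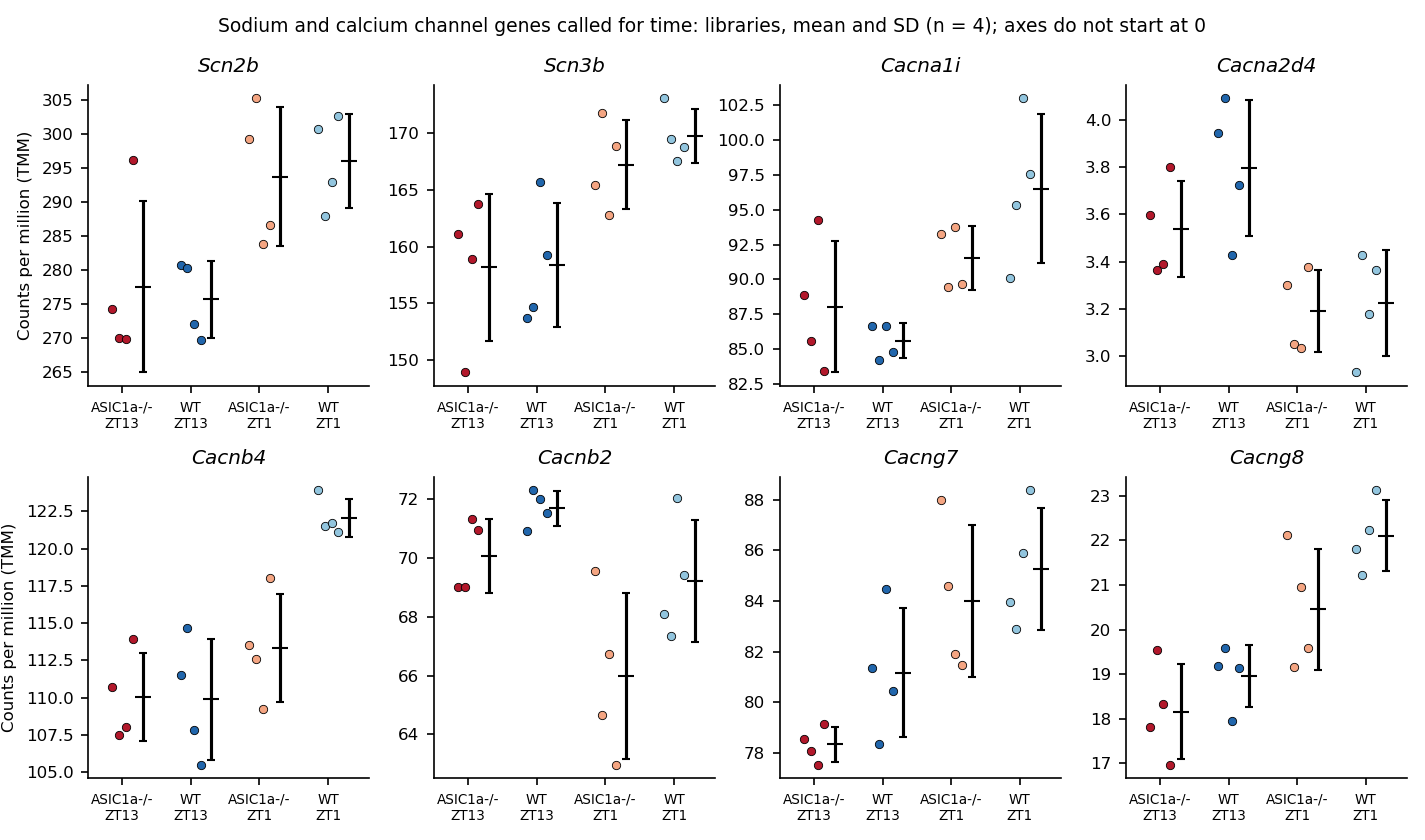
CPM (TMM-scaled) in each library of 8 sodium and calcium channel genes called between ZT13 and ZT1, with group mean and SD (n = 4) beside the points. The vertical axes do not start at 0. Cacna2d4 and Cacnb2 are higher at ZT13 and the other 6 genes lower, and for Cacnb4 the 4 WT libraries at ZT1 (121 to 124 CPM) lie above the other 12.

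Of the 12 calls averaged over genotypes, 10 remained without any single library (adjusted p by edgeR of at most 0.0291). Cacnb2 was lost (up to 0.0664) without any of 8 libraries, namely ASIC1a-/- replicates 3 and 4 and WT replicates 2 and 3 at ZT13, and ASIC1a-/- replicates 2 and 4 and WT replicates 1 and 2 at ZT1. Cacna2d4 was lost (up to 0.0776) without any of 9, namely ASIC1a-/- replicates 1 and 4 and WT replicates 1, 2 and 4 at ZT13, and ASIC1a-/- replicates 2 and 3 and WT replicates 1 and 3 at ZT1. Cacna2d4 was also lost with DESeq2, and both genes with no filter on low counts. With log2(TPM + 1) in limma 6 of the 12 calls remained, and Cacna1i, Cacna2d4, Cacnb2, Cacnb4, Cacng7 and Hcn3 were lost. That setting called 2643 of all genes averaged over genotypes, against 4170 in the main fit.

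Calls within a genotype depended more on single libraries. In WT mice Hcn4, Cacnb4, Cacna1i and Cacng8 remained without any single library (adjusted p of at most 0.0329 by edgeR). Hcn3 was lost (up to 0.0863) without WT replicate 2 or 4 at ZT13 or 2, 3 or 4 at ZT1, and Hcn2 (up to 0.0784) without WT replicate 2, 3 or 4 at ZT13 or 1, 3 or 4 at ZT1. Scn2b was lost (up to 0.109) without WT replicate 3 or 4 at ZT13 or 1, 3 or 4 at ZT1, and Scn3b (up to 0.0987) without WT replicate 1, 2 or 4 at ZT13 or any WT library at ZT1. The number called in WT mice was 4 without WT replicate 4 at ZT13 or without WT replicate 3 or 4 at ZT1. It was 6 without WT replicate 3 at ZT13 or without WT replicate 1 or 2 at ZT1. Of all genes, 1315 to 1838 were called in WT mice in these fits, against 2098 with all libraries. With log2(TPM + 1), Hcn4, Cacnb4, Hcn2 and Scn2b remained in WT mice, and 879 genes were called in all.

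In ASIC1a-/- mice Hcn4 was lost (adjusted p by edgeR of up to 0.0673) without ASIC1a-/- replicate 1, 2 or 3 at ZT13 or 2 at ZT1. Cacng8 was lost (up to 0.116) without ASIC1a-/- replicate 1, 3 or 4 at ZT13 or 1 or 3 at ZT1. Cacng7 was lost (up to 0.129) without any ASIC1a-/- library or WT replicate 4 at ZT13, or without ASIC1a-/- replicate 1 or 2 or WT replicate 3 at ZT1. The number called was 1 without ASIC1a-/- replicate 1 at ZT13, and 2 without replicate 2 or 3 at ZT13 or replicate 2 at ZT1. Of all genes, 1163 to 1415 were called in ASIC1a-/- mice in these fits, against 1792 with all libraries. With log2(TPM + 1) none of the 4 remained and Scn1a was called, while 971 genes were called in all. Hcn3, with an adjusted p of 0.053 by edgeR in ASIC1a-/- mice, was called there by DESeq2.

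Without both libraries high in meningeal markers, 1 member, Cacng8, was called between ZT13 and ZT1 in ASIC1a-/- mice, and 11 were called averaged over genotypes. The number called over all genes was then 1074 in ASIC1a-/- mice, against 1792, and 3643 averaged over genotypes, against 4170. Meningeal markers summed to 34.1 to 140 TPM in ASIC1a-/- mice at ZT13, against 50.3 to 254 TPM in ASIC1a-/- mice at ZT1. In WT mice they summed to 35.4 to 54.7 TPM at ZT13, against 39.2 to 51.8 TPM at ZT1. Markers of the neighbouring thalamus, where T-type channels and Hcn4 are also strongly expressed, summed to 390 to 446 TPM in ASIC1a-/- mice at ZT13 and 391 to 430 TPM in ASIC1a-/- mice at ZT1. In WT mice they summed to 386 to 408 TPM at ZT13 and 409 to 473 TPM at ZT1. Most of this sum was Calb2, the gene of calretinin, with 338 to 390 TPM over the libraries. With the log2 of the sum as a covariate, 10 of the 12 calls averaged over genotypes remained, Hcn2 (adjusted p = 0.0749) and Cacna2d4 (0.0547) being lost. In all, 3285 genes were then called averaged over genotypes, against 4170. In WT mice alone none of the 9 calls remained, Hcn4 being at 0.24 with an adjusted p of 0.0511, and over all genes the number called fell to 644, against 2098 without the covariate. In WT mice the sums of the 2 times did not overlap, which rested on Calb2, with 338 to 359 TPM at ZT13 and 365 to 390 TPM at ZT1. The covariate thus followed time of day in WT mice, and this fit cannot tell them apart there. The less abundant markers overlapped between the times. Of these, Tcf7l2, Ramp3 and Synpo2 were high in WT replicates 4 and 3 at ZT1. Ramp3 held 13.7 and 7.6 TPM there, against 2.82 to 4.92 TPM in WT mice at ZT13. Prkcd (23.3 TPM) and Rora (12.1 TPM) were high in WT replicate 4 at ZT1 only. Lef1 was not high, with 6.15 and 5.58 TPM in WT replicates 4 and 3, against 4.56 to 8.88 TPM in WT mice at ZT13. ASIC1a-/- replicate 4 at ZT13 also held 7.12 TPM of Ramp3 and was kept in the omission that follows. WT replicates 4 and 3 at ZT1 held 97.6 and 103 CPM of Cacna1i, the highest of the 16. Without both of them, 2 members, Hcn4 and Cacnb4, were called between ZT13 and ZT1 in WT mice, and 935 genes in all. Cacna1i was then at -0.12 in WT mice (adjusted p = 0.132 by edgeR), and averaged over genotypes it was called at -0.085 (adjusted p = 0.0401). Averaged over genotypes 11 of the 12 calls remained without both, and Cacna2d4 was lost, while 3507 genes were called in all.

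Other cell types were measured in the same way, and their part in these results was not tested. The endothelial markers did not share a direction. Of 6 endothelial markers 4 were called between ZT13 and ZT1 averaged over genotypes, with a summed level of 138 to 160 TPM in ASIC1a-/- mice at ZT13, against 121 to 135 TPM in ASIC1a-/- mice at ZT1. In WT mice the sum was 132 to 142 TPM at ZT13, against 121 to 140 TPM at ZT1. Their median log2 fold change was -0.13 averaged over genotypes. Ly6c1 held 58.0 to 63.6 TPM in WT mice at ZT13, against 39.4 to 49.7 TPM in WT mice at ZT1, while Cldn5 held 19.6 to 24.2 TPM in WT mice at ZT13, against 27.7 to 32.4 TPM in WT mice at ZT1. Of the 4 tested markers of the anterior pituitary, which lies next to the hypothalamus, all 4 were called in WT mice, with a sum of 15.8 to 113 TPM at ZT13, against 1.47 to 9.61 TPM at ZT1. In ASIC1a-/- mice 0 of these 4 were called, with 2.15 to 34.8 TPM at ZT13, against 13.3 to 36.6 TPM at ZT1. Of 7 oligodendrocyte and 6 microglia markers, 3 and 3 were called averaged over genotypes, against 1 of 8 neuronal markers. The share called over all tested genes was 26.4% averaged over genotypes, 13.3% in WT mice and 11.3% in ASIC1a-/- mice. No marker of these lists was at 0 in all libraries.

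RSEM's abundance-weighted transcript length was compared as a readout of isoform use that is separate from the level. It was tested for 34 members and 13197 genes with limma on log2 length. No member was called between ASIC1a-/- and WT mice (0 of 34, with 0.0227% of all genes called) or between ZT13 and ZT1 (0 of 34, with 0.0606% called). There were 2 members with an unadjusted p under 0.05 in each comparison. The lowest was that of the L-type channel gene Cacna1d, named here for that reason, whose length was 4135 ± 156 bases at ZT13 and 4468 ± 205 bases at ZT1 (SD, n = 8 each, adjusted p = 0.173 by limma).

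Genes whose proteins bind or regulate these channels were taken from a list that held intracellular FGFs, ankyrins, spectrin, neurofascin-type adhesion proteins, calmodulins, NALCN and its partners, RGK-type GTPases and active-zone proteins. Of the 29 tested, 0 were called between genotypes at either time or averaged. An unadjusted p under 0.05 was reached by 2 at ZT13, 5 at ZT1 and 7 averaged. It was reached by 591, 1107 and 1075 of all 15806 genes. Between ZT13 and ZT1, 8 of 29 were called averaged over genotypes (2 higher and 6 lower), 4 in ASIC1a-/- mice and 6 in WT mice. These are 27.6%, 13.8% and 20.7%, against 26.4%, 11.3% and 13.3% of all tested genes. Rrad, a small GTPase that inhibits voltage-gated calcium channels through their beta subunits, was higher at ZT13 by 1.02 ± 0.0998 on the log2 scale in ASIC1a-/- mice (adjusted p = 4.72e-06 by edgeR) and by 0.55 ± 0.101 in WT mice (adjusted p = 0.00173). Gem, a GTPase of the same family, was higher at ZT13 by 0.68 ± 0.168 in ASIC1a-/- mice (adjusted p = 0.0139 by edgeR) and stood at -0.12 ± 0.175 in WT mice (adjusted p = 0.71). The interaction was 0.47 ± 0.142 for Rrad and 0.80 ± 0.242 for Gem, both with an adjusted p of 1 by edgeR. Both values of Rrad, and that of Gem in ASIC1a-/- mice, were larger than the log2 fold change of any of the 40 channel genes between ZT13 and ZT1. Gem was also at 0.80 ± 0.169 between ASIC1a-/- and WT mice at ZT13, with an adjusted p of 0.105 by edgeR. Nedd4l, a ubiquitin ligase of sodium channels, was higher at ZT13 by 0.13 ± 0.021 averaged over genotypes, and the adhesion protein Nrcam was lower, at -0.12 ± 0.016. Stac2, an adaptor of L-type channels, was at -0.12 ± 0.035 and the active-zone protein Rims1 at -0.064 ± 0.021, and both were called.

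The 78 tested potassium channel genes, taken for comparison, were treated in the same way. Between ZT13 and ZT1, 13 were called in ASIC1a-/- mice (16.7%), 12 in WT mice (15.4%) and 21 averaged over genotypes (26.9%, with 12 higher and 9 lower). Of all tested genes 11.3%, 13.3% and 26.4% were called in these comparisons. Between genotypes 0 were called at ZT13, at ZT1 or averaged by edgeR, with 4, 12 and 10 at an unadjusted p under 0.05. Of all 15806 genes, 591, 1107 and 1075 were under 0.05.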

How the data were processed

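Per the submitters' notes, reads were trimmed with cutadapt 1.8, aligned with STAR 2.5.3a and quantified with RSEM 1.2.31. These notes list GRCm38 as well as mm9, and labels and methods differ on the kits. The deposited expected counts are the authors' RSEM estimates per gene, not normalized. TPM values and abundance-weighted transcript lengths in bases were also made by the authors with RSEM and used as deposited. Symbols and positions came from GENCODE M21 (GRCm38), which names 55141 of 55401 identifiers.

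Counts were rounded, scaled by TMM and fitted by edgeR 4.0.16 (R 4.3.3; quasi-likelihood, 4 group means, 16 libraries), after the study's CPM filter, in 7 comparisons, each with Benjamini-Hochberg adjustment. Lengths were tested with limma 3.58.1 where every library had at least 10 counts. Procedures were tested on simulated data. The alternatives were no filter or filterByExpr, DESeq2 1.42.0 or its size factors, plain library size, limma-voom, log2(TPM + 1), log2(TPM + 0.1), only the 8 libraries compared, a replicate block and omission of each library. The thalamic covariate and the omissions by marker level were chosen after seeing the data. Omitted were 2 libraries high in meningeal markers, or 2 WT libraries at ZT1 high in the thalamic markers Tcf7l2 and Ramp3. ASIC1a-/- replicate 4 at ZT13, with 18.7 TPM of Tcf7l2 and 7.12 TPM of Ramp3, was kept in the latter. Members and lists were chosen with earlier results of these data known. Named genes were the members called, the highest TPM of each subfamily, the 3 smallest p in each comparison and up to 6 called partner genes. Libraries of a group differed beyond counting error (chi-square per degree of freedom of 3.18 to 11.3), so none was a duplicate. Values of some members are not reported here.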

Additional observations from a re-analysis of the deposited data

Results flagged for a closer look

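In 96 groups of 4 libraries (24 named genes in 4 groups), 3 libraries (3.12% of the groups) lay far from the other 3 by Dixon's ratio, where chance gives about 1 group in 20. Hcn4 was low in ASIC1a-/- replicate 4 at ZT13, at 19.94 CPM, while the rest of the group held 21.8 to 22.1 CPM (ratio 0.839). Scn2b was high in the same library, at 296.2 CPM, while the rest held 269.8 to 274.2 CPM (ratio 0.833). Hcn3 was low in WT replicate 1 at ZT1, at 40.21 CPM, while the rest held 43.3 to 43.8 CPM (ratio 0.837).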

How the results depend on the processing

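No level of a member was called between genotypes or for the interaction under any alternative run. No transcript length of a member was called between genotypes or times with at least 50 counts, with the replicate block or without a single library. Between ZT13 and ZT1 in ASIC1a-/- mice, 4 members were called, against 2 with no filter on low counts, 1 with log2(TPM + 1), 1 with log2(TPM + 0.1), 1 with only the 8 libraries compared and 1 without both libraries high in meningeal markers, and 1 to 5 without a single library. In WT mice 9 were called, against 4 with log2(TPM + 1), 4 with log2(TPM + 0.1) and 0 with the thalamic covariate. There were 2 without both WT libraries at ZT1 high in Tcf7l2 and Ramp3, and 4 to 10 without a single library. Averaged over genotypes 12 were called, against 7 with log2(TPM + 1), 7 with log2(TPM + 0.1) and 10 to 13 without a single library. Calls over all genes also fell with log2(TPM + 1). They were 971 in ASIC1a-/- mice, 879 in WT mice and 2643 averaged, against 1792, 2098 and 4170. With log2 TPM, Cacnb4 in ASIC1a-/- mice changed sign to 0.004, and neither value was called. TPM carries the length estimates as well as the counts. The cause of the lower counts in the other fits was not tested, beyond the fewer libraries in some of them.

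The labels do not say that replicate numbers pair the libraries. Same-numbered libraries of 2 groups deviated together with correlations of -0.371 to 0.428, and in each pair of groups at most 2 of 4 exceeded 0.1. At most 2 of 4 libraries correlated best with the library of their own number. A shared litter or day was not tested. With the replicate block, 2 members were called in ASIC1a-/- mice, with Cacng7 (adjusted p = 0.064) and Cacng8 (0.0626) lost. In WT mice 8 were called, 7 of them shared, with Scn3b (0.0544) among those lost and Scn4b gained. Averaged over genotypes 12 were called, 11 of them shared, with Cacna2d4 (0.053) lost and Scn4b gained. Over 48 results for named genes, 1224 of 1374 alternative values kept the direction and side of the threshold. This total includes results with no call to lose, among them all those between genotypes and for the interaction. A call was lost in 140 alternative values and gained in 8, and the sign was reversed in 2. The lowest counts of a tested member were those of Scn11a, with 32 to 70 in a library.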
